A study of Rattus norvegicus with 16 samples.

Results

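Rat retina labelled circadian time 12 (CT12) was compared with rat retina labelled Zeitgeber time 12 (ZT12), on 3 arrays of total RNA for each label. The comparison holds the 6 arrays whose titles name retina at CT12 or ZT12, of 16 arrays in the series, and it was made with all 6 and again without the array numbered 1 in the CT12 titles (CT12 array 1). The other arrays are 6 of retina at CT6 and ZT6, which served here to estimate the spread and as a contrast at another hour, and 4 of pineal gland. All 6 arrays share species and tissue. Strain, sex, age and lighting are not given in the labels used here. The labels also do not say that the arrays of a group were made from different animals: the p-values therefore measure the spread among these samples alone, which may be technical. The arrays numbered 3 name brain and retina as their source, and those numbered 1 and 2 name eye and retina.

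Zeitgeber time counts hours from lights on in a light-dark cycle, and circadian time counts hours of the internal clock when no cycle is present, so a sample labelled with the same hour on both scales is at a comparable clock phase with or without a preceding light period. The retina holds its own clock, which times dopamine and melatonin synthesis, and light also acts directly on its neurons. Depolarised neurons switch on immediate early genes within minutes, among them the transcription factors Fos, Egr1 and Junb, and the secreted synaptic protein Nptx2 is induced with them. Clock and light responses often run through promoter elements that bind CREB or the CLOCK and BMAL1 proteins.

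The arrays were Affymetrix gene arrays. Each gene is read by a probe set, a group of short oligonucleotides, and some genes have several. Of 8740 probe sets that are not controls, 5244 were bright enough to be tested, and these cover 3173 named genes. Values below are log2 of the intensity plus 16, so that a difference of 1 is a factor of 2 in intensity plus 16. Fold changes are on that scale and understate the change of dim probe sets. Errors after ± are SD for a group and standard errors (SE) for a difference, and n is 3 arrays per group unless stated. Adjusted p-values are from limma with the Benjamini-Hochberg correction over all probe sets tested, and a probe set passed when this was under 0.05.

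Rod markers were at the top of the scale on 5 of the 6 arrays. Of the rod markers sought, 3 of 8 were on the array (Sag, Pdc and Prph2), and they stood between the 99.05 and the 99.95 percentile of all probe sets on the ZT12 arrays and on CT12 arrays 2 and 3. On CT12 array 1 they stood between the 87.5 and the 91.0 percentile. The cone opsins Opn1sw and Opn1mw stood lower, between the 79.5 and the 89.3 percentile on those 5 arrays. The ganglion cell markers ranged widely there. Nefl lay between the 93.2 and the 95.5 percentile and Thy1 between the 95.2 and the 95.6. Nefm lay between the 77.9 and the 85.7, and Gap43 between the 70.1 and the 74.6. The pineal enzymes Asmt, Aanat and Tph1, which make melatonin and serotonin, were measured and none of the 3 reached the intensity filter. The lens crystallins Cryaa and Crybb2 were at or above the 99.89 percentile on all 6 arrays.

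CT12 array 1 was unlike the remaining 11 arrays of retina. Over all probe sets, its rank correlation with them had a median of 0.837, against 0.944 to 0.962 for each of the others, and its 50 brightest probe sets took 28.4% of the summed intensity, against 22.7% on CT12 array 2 and 17.3% to 19.5% on the other 10. Summed intensity of the 10 lens fibre genes, which build the lens fibre cell, was 2.07% of the total on CT12 array 1, 1.17% on CT12 array 2 and 0.275% on CT12 array 3, and 0.134% to 0.415% on the ZT12 arrays. The 13 rod genes took 0.151%, 1.19% and 1.86% on the same CT12 arrays and 1.79% to 1.97% on the ZT12 arrays. So array 1 was the richest in lens fibre RNA and the poorest in rod RNA, array 2 lay between, and array 3 was inside or near the ZT12 range. Within the CT12 group the median SD of a probe set was 0.41, against 0.17 at ZT12, and it was 0.20 without array 1. In whole-tissue RNA, fewer cells of a type and less RNA per cell cannot be told apart.

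**Figure D1:**
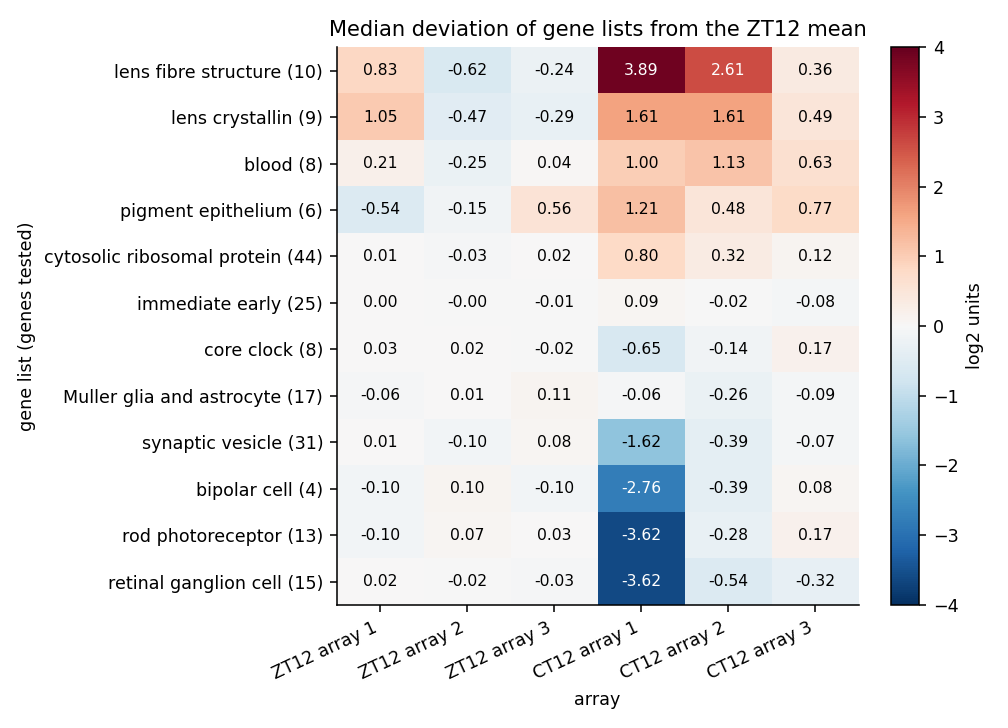
Median deviation of 12 gene lists from the mean of the ZT12 arrays, in log2 units, for each of the 6 arrays, with the number of genes tested in each list in brackets. Red is higher and blue is lower. CT12 array 1 carries the lowest rod and ganglion cell medians (both -3.62) and the highest lens fibre median (3.89), and CT12 array 3 lies close to the ZT12 arrays.

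With all 6 arrays, 32 of the 5244 probe sets passed, which is 0.610% of those tested. Of these, 26 (0.496%) were lower and 6 (0.114%) were higher at CT12 than at ZT12. Without CT12 array 1, again 32 passed (0.610%), 28 lower (0.534%) and 4 higher (0.0763%). The 2 lists shared 17 probe sets of 16 named genes, 53.1% of each list, of which 15 were lower and 2 were higher. Named genes among the lower ones were Ahr, Gstk1, Nsg1, Nptx2, Slc25a30, Scfd2, Crot, Fos, Dync1h1, Cpt1a, Wbp11, Cebpd, Nup98 and Prune2, and the higher pair were Slc6a5, the neuronal glycine transporter GlyT2, and Slfn2, a growth regulator of the Schlafen family. In all 32 probe sets that passed with 6 arrays the groups did not overlap. Among all probe sets tested, 16.1% had CT12 arrays wholly below the ZT12 arrays and 12.6% had them wholly above, and without array 1 these shares were 20.3% and 16.1%. Positive differences made up 48.3% of all probe sets tested, and 47.5% without array 1.

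These counts depended on single arrays. Of the 5244 probe sets, 1373 (26.2%) had an unadjusted p under 0.05. Without ZT12 array 2 or without ZT12 array 3, 0 probe sets passed in limma, with 814 and 987 at an unadjusted p under 0.05, and without ZT12 array 1 only 2 passed. Without CT12 array 3 the count rose to 1072, and without CT12 array 2 it was 19. In the fit that already lacked CT12 array 1, the count was 0 without ZT12 array 2 or ZT12 array 3 (741 and 862 at an unadjusted p under 0.05), 11 without ZT12 array 1 and 132 without CT12 array 3. Without the arrays numbered 3 of every group, 1 probe set passed with the other arrays, and 4 when CT12 array 1 was left out too, all higher and none among the calls above.

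**Figure D2:**
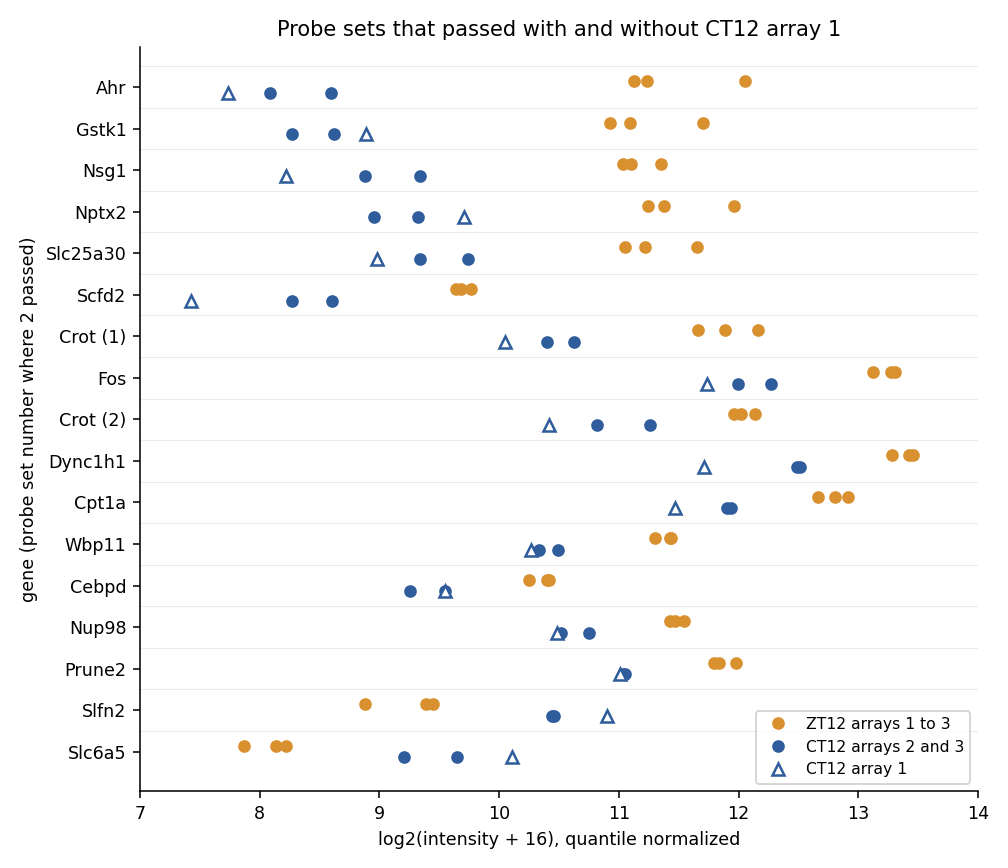
Values on the 6 arrays for the 17 probe sets that passed both with and without CT12 array 1, as log2(intensity + 16) after quantile normalization. Orange points are ZT12 arrays, blue points CT12 arrays 2 and 3 and open triangles CT12 array 1. In all 17 the ZT12 and CT12 arrays are separate, with 15 lower and 2 higher at CT12.

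Ahr, the aryl hydrocarbon receptor, a ligand-activated transcription factor related to the clock proteins CLOCK and BMAL1, had the largest difference among the probe sets that passed. Its passing probe set read 11.24, 12.06 and 11.13 on ZT12 arrays 1 to 3 and 7.74, 8.09 and 8.60 on CT12 arrays 1 to 3. All CT12 arrays were thus lower than every ZT12 array by a wide margin, and CT12 array 1 was not needed for the gap. The difference was -3.33 ± 0.38, a 10.1-fold lower value (95% interval 5.62 to 18.0), with adjusted p 0.0188, and -3.14 ± 0.41 without array 1, with adjusted p 0.0169. A second Ahr probe set differed in the same direction by -2.25 (adjusted p 0.136) and by -1.09 without array 1 (adjusted p 0.112), and 2 more were too dim to be tested. CT12 was also below both hour 6 groups, which averaged 10.42 ± 0.25 at ZT6 and 10.67 ± 0.74 at CT6.

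Cebpd, a transcription factor of acute stress and differentiation, read 10.42, 10.40 and 10.25 at ZT12 and 9.55, 9.55 and 9.26 at CT12. The arrays within each group lay close together and the groups were separate. The probe set fell by 0.90 on the log2 scale at CT12 (SE 0.14, adjusted p 0.0320), and by 0.96 without array 1 (adjusted p 0.0207). A second, brighter Cebpd probe set went the other way, with a difference of 0.63 (adjusted p 0.127), or 0.42 without array 1 (adjusted p 0.212). So the gene's direction depends on the probe set read. Gstk1, a mitochondrial and peroxisomal glutathione transferase, had a fall on 1 probe set that the other did not share. Its passing probe set read 10.93, 11.70 and 11.09 at ZT12 and 8.89, 8.27 and 8.62 at CT12, a difference of -2.65 ± 0.41 (adjusted p 0.0319). The other one differed by 0.57 (adjusted p 0.254), and by 0.18 without array 1 (adjusted p 0.703).

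Nptx2, neuronal pentraxin 2, a secreted protein that gathers AMPA receptors at excitatory synapses, read 11.38, 11.96 and 11.24 at ZT12 and 9.70, 9.33 and 8.96 at CT12. Here CT12 array 1 was the highest of the CT12 arrays and still below all ZT12 arrays. The difference was -2.20 ± 0.27 (4.59-fold lower, 95% interval 3.04 to 6.95, adjusted p 0.0188), and -2.40 ± 0.27 without array 1 (adjusted p 0.0169). A brighter Nptx2 probe set was less different: it read 11.80, 12.00 and 11.82 at ZT12 and 9.12, 11.45 and 11.61 at CT12. Its difference of -1.15 ± 0.52 (adjusted p 0.190) rested on CT12 array 1, since without that array it was -0.34 ± 0.16 (adjusted p 0.271). The name of the passing probe set carries the maker's mark for a set that relaxes the usual probe choice rules.

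Nsg1, a neuronal protein of endosomal receptor traffic, read 11.35, 11.10 and 11.04 at ZT12 and 8.22, 8.88 and 9.34 at CT12. The lowest value was on CT12 array 1, yet arrays 2 and 3 were also below the whole ZT12 group. Its difference was -2.35 ± 0.37 (adjusted p 0.0319) and -2.06 ± 0.36 without array 1 (adjusted p 0.0349). A second Nsg1 probe set differed by -0.52 (adjusted p 0.185).

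The bases before the transcription start are shown for a gene of each direction, because both hold an element tied to light or clock control. RefSeq promoter sequences (GRCr8) were found for 19 of the 25 named genes that passed with all 6 arrays. TGACG, the core of the site bound by CREB, searched on both strands in the 250 bases upstream, was present in 7 of the 19 (Cdkn1a, Nptx2, Nsg1, Nup98, Prune2, Scfd2 and Slfn2), and in 18.2% of all 33469 promoters of the same length. CACGTG, the E-box bound by CLOCK and BMAL1, was present in Scfd2 and Slfn2, and in 5.59% of all. These shares are over all promoters and not over those of the genes tested, so the comparison is no measure of enrichment. A match is a description of letters and not evidence of binding. In the Nptx2 sequence (chr12:15162046-15162295, minus strand) the capitals mark TGACG, which starts 90 bases before the start site. In the Slfn2 sequence (chr10:68450611-68450860, plus strand) the capitals mark CACGTG, which starts 133 bases before it.
Nptx2: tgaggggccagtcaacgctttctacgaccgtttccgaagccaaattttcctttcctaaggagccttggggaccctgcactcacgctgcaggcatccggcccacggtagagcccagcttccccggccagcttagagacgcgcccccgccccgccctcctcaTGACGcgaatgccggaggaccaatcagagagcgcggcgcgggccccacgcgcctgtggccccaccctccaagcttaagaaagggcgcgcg
Slfn2: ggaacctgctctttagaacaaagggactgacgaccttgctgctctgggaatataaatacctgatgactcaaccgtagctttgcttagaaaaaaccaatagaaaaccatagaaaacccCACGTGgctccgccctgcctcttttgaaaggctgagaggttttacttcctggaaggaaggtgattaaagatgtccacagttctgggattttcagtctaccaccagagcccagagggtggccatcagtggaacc

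Fos, the immediate early transcription factor of the AP-1 complex, read 13.12, 13.31 and 13.28 at ZT12 and 11.74, 12.00 and 12.27 at CT12. All CT12 arrays were below all ZT12 arrays, and array 1 was the lowest of them. It fell by 1.24 on the log2 scale (SE 0.18, 2.36-fold, 95% interval 1.80 to 3.09, adjusted p 0.0245), and by 1.09 without array 1 (SE 0.16, adjusted p 0.0203). Another Fos probe set differed by -2.30 with all arrays (adjusted p 0.0937) and passed without array 1, at -1.47 ± 0.20 (adjusted p 0.0191). The third differed by -2.02 (adjusted p 0.108). At hour 6 Fos was lower still, at 11.35 ± 0.22 for ZT6 and 11.39 ± 0.14 for CT6, so ZT12 was the highest of the 4 retina groups, CT12 came next, and the hour 6 groups differed from each other by less than their spread.

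Egr1, another immediate early transcription factor and the brightest of its list, showed a larger difference that did not pass. Its values were 16.51, 17.14 and 16.73 at ZT12 and 12.38, 14.78 and 15.09 at CT12. The groups did not overlap, but the CT12 arrays were spread over almost 3 log2 units, with array 1 the lowest. The difference was -2.71 ± 0.69 (adjusted p 0.106), and -1.82 ± 0.50 without array 1 (adjusted p 0.124). Both hour 6 groups lay lower, at 11.12 ± 0.19 for ZT6 and 12.11 ± 1.13 for CT6.

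The immediate early list was written with earlier results of these data known. Of its 33 genes on the array 25 could be tested, each on its brightest probe set. Of these, 2 fell (Fos and Cdkn1a, the cell cycle inhibitor p21) and 0 rose, against 0.378% lower and 0.126% higher among all 3173 genes. Without array 1, Fos alone fell, against 0.506% of all genes. Cdkn1a read 9.86, 10.01 and 9.89 at ZT12 and 8.46, 8.01 and 8.57 at CT12, a difference of -1.57 ± 0.28 (adjusted p 0.0440), but without array 1 it missed the threshold at -1.64 ± 0.31 (adjusted p 0.0505). Of the differences, 13 were positive and 12 negative, against 51.0% negative among all genes, and their median of 0.04, which was -0.02 with values as deposited, lay beside one of -0.02 over all genes.

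Members of this list that did not pass ranged widely. Junb differed by -1.38 (adjusted p 0.116) with separate groups, and Atf3 by -0.93 (adjusted p 0.385). Nr4a1 differed by -1.68 and Dusp1 by -1.35, but CT12 array 1 made most of both: without it the differences were -0.35 and -0.08. Klf6 and Klf4 were on the other side, at 1.38 (adjusted p 0.115) and 1.05 (adjusted p 0.158), and Arc was at 0.30.

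**Figure D3:**
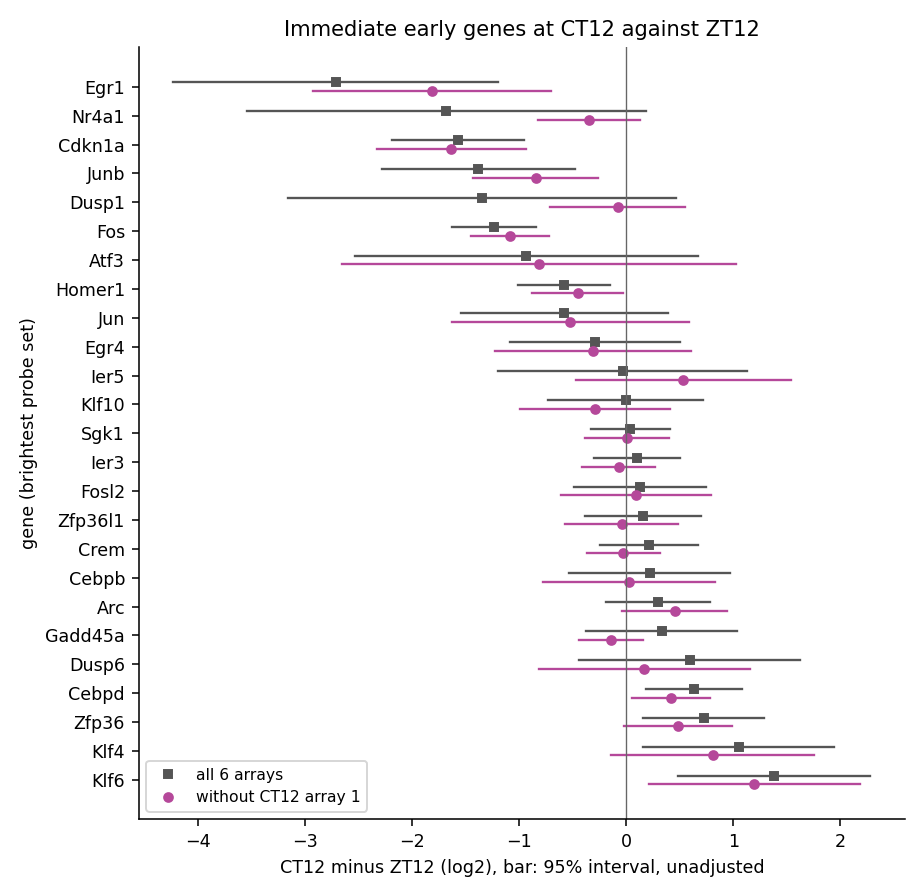
Difference between CT12 and ZT12 in log2 units for the 25 immediate early genes tested, with all 6 arrays (grey squares) and without CT12 array 1 (purple circles). Bars are 95% intervals that are not adjusted for the number of genes. Fos is at -1.24 and -1.09, and the intervals of Nr4a1 and Dusp1 narrow toward 0 without the array.

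No core clock gene passed. Of 9 on the array 8 were tested, 0 passed in limma with or without array 1 (0 and 1 at an unadjusted p under 0.05), and in none of the 8 were the 6 arrays free of overlap. Without array 1, the CT12 arrays of Rorb and Bhlhe41 were above all ZT12 arrays, against 16.4% of all genes, with differences of 0.66 (adjusted p 0.220) and 0.16 (adjusted p 0.588). Bmal1, the activator of the clock loop, read 12.36, 12.59 and 12.34 at ZT12 and 7.48, 11.93 and 12.56 at CT12. Its difference of -1.77 ± 1.00 (adjusted p 0.258) came from array 1, and was -0.18 without it. A second Bmal1 probe set differed by -1.60 (adjusted p 0.175), and by -0.58 without array 1 (adjusted p 0.234). Per2, a repressor of the loop, read 9.80, 9.80 and 9.65 at ZT12 and 10.94, 10.13 and 9.68 at CT12, a difference of 0.50 ± 0.27 (adjusted p 0.241) that was 0.15 without array 1. Nr1d1, which represses Bmal1, differed by -0.34 (adjusted p 0.273), and by -0.12 without array 1.

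Clock outputs and the dopamine system were likewise without a passing gene. Dbp, a transcription factor driven directly by the clock, read 13.10, 13.01 and 12.89 at ZT12 and 11.62, 12.80 and 13.07 at CT12, and its difference of -0.50 shrank to -0.06 without array 1. Fbxo21, a ubiquitin ligase subunit, had the largest difference of this output list, at -1.44 ± 0.65 (adjusted p 0.189) and -1.41 without array 1 (adjusted p 0.340), with CT12 array 2 inside the ZT12 range. Por, an electron donor to cytochrome P450 enzymes, had the lowest adjusted p, 0.113, at a difference of 0.55. Of 11 melatonin and dopamine genes tested, 4 had CT12 arrays below all ZT12 arrays (Drd1, Drd2, Maob and Adcy8), against 15.6% of all genes, and without array 1 this was 6 of 12, against 19.7%. The dopamine receptors Drd1 and Drd2 had differences of -1.81 and -1.35 that became -0.64 and -0.53 without array 1. Maob, which breaks down dopamine, and the adenylyl cyclase Adcy8 had differences of -0.53 and -0.73, or -0.59 and -0.70 without it. Drd4, the photoreceptor dopamine receptor, turned from -0.87 to 0.38, and Th, which makes dopamine, differed by -0.53 (adjusted p 0.267) and -0.20.

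Carnitine metabolism gave 2 genes that passed both ways. Cpt1a, which loads long-chain fatty acids onto carnitine at the mitochondrial outer membrane, read 12.91, 12.81 and 12.67 at ZT12 and 11.47, 11.90 and 11.93 at CT12. No CT12 array reached the ZT12 range. It fell by 1.03 (SE 0.17, adjusted p 0.0361) and, without array 1, by 0.87 (SE 0.15, adjusted p 0.0337). Its hour 6 values were higher than either, at 13.55 ± 0.07 for ZT6 and 13.14 ± 0.23 for CT6.

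Crot, the peroxisomal carnitine octanoyltransferase, passed on both of its probe sets. The brighter one read 12.02, 12.14 and 11.96 at ZT12 and 10.42, 10.82 and 11.26 at CT12, and the other 11.66, 12.17 and 11.88 against 10.05, 10.40 and 10.63. On both, the CT12 arrays ran in the order 1, 2, 3 from low to high and stayed below ZT12. The differences were -1.21 ± 0.19 (adjusted p 0.0320) and -1.54 ± 0.23 (adjusted p 0.0319), and without array 1 -0.998 (adjusted p 0.0203) and -1.39 (adjusted p 0.0334).

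The rest of fatty acid oxidation did not follow these genes. Of 34 genes tested in this list, 2 fell and 0 rose, against 0.378% and 0.126% of all genes, and the median was -0.16, or 0.00 without array 1. Mitochondrial enzymes lay on both sides: Acadm differed by -0.59 (adjusted p 0.417), Hadha by -0.35 (adjusted p 0.269) and Acaa2 by 0.77 (adjusted p 0.127). Without array 1 a dimmer probe set of Hsd17b4, the peroxisomal bifunctional enzyme, also passed at -1.45 ± 0.24 (adjusted p 0.0300), but its brightest probe set differed by -0.29 (adjusted p 0.300). Decr2, the peroxisomal dienoyl-CoA reductase, passed only without array 1 and was higher, at 0.98 ± 0.13 (adjusted p 0.0169), while its other probe set differed by -0.43 (adjusted p 0.282).

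Slc25a30, a mitochondrial inner membrane carrier, read 11.05, 11.65 and 11.22 at ZT12 and 8.98, 9.34 and 9.74 at CT12. The ZT12 arrays stood above all 9 other retina arrays, whose groups averaged 9.36 ± 0.28 at ZT6, 9.32 ± 0.36 at CT6 and 9.36 ± 0.38 at CT12. The difference was -1.95 ± 0.26 (3.87-fold lower, adjusted p 0.0217) and -1.77 ± 0.26 without array 1 (adjusted p 0.0203). Other energy pathways had no gene that passed on its brightest probe set: 49 oxidative phosphorylation genes had a median of 0.17 and 22 glycolysis genes one of -0.49, which was -0.18 without array 1.

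Dync1h1, the heavy chain of the dynein motor that carries cargo along microtubules, read 13.42, 13.29 and 13.46 at ZT12 and 11.71, 12.52 and 12.49 at CT12. Its CT12 arrays were lower throughout, array 1 most. It fell by 1.15 (SE 0.20, adjusted p 0.0440) and by 0.87 without array 1 (SE 0.12, adjusted p 0.0169). Without array 1 the microtubule-associated proteins Map1a and Map1b passed as well, at -0.99 ± 0.15 (adjusted p 0.0203) and -1.29 ± 0.23 (adjusted p 0.0362). For Map1b this was 1 of 3 probe sets, and its brightest one differed by -0.32 (adjusted p 0.263).

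Scfd2, Wbp11, Nup98 and Prune2 complete the genes that were lower in both fits. Scfd2, a Sec1 family protein of vesicle fusion, read 9.77, 9.64 and 9.68 at ZT12 and 7.43, 8.27 and 8.61 at CT12, and fell by 1.59 (SE 0.26, adjusted p 0.0320). Wbp11, a splicing factor, read 11.43, 11.31 and 11.44 against 10.27, 10.33 and 10.50, and fell by 1.02 (SE 0.14, adjusted p 0.0217). Unlike Scfd2, whose CT12 values were spread over more than 1 log2 unit, Wbp11 was tight in both groups, and CT12 array 1 did not stand out.

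Nup98, a nuclear pore protein, read 11.54, 11.47 and 11.42 at ZT12 and 10.49, 10.75 and 10.51 at CT12, and fell by 0.90 (SE 0.15, adjusted p 0.0320). Its 2 other probe sets differed by -0.31 and -0.09 and did not pass. Prune2, a protein of cell survival and differentiation, read 11.83, 11.80 and 11.98 against 11.01, 11.05 and 11.03, and fell by 0.84 (SE 0.14, adjusted p 0.0320). Both had groups that lay well apart, with CT12 array 1 inside the range of its group or next to it.

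Slc6a5, the GlyT2 transporter that reloads glycine into inhibitory neurons, was higher at CT12. It read 8.22, 7.87 and 8.14 at ZT12 and 10.11, 9.20 and 9.65 at CT12. The ZT12 arrays were the lowest of all retina arrays, since ZT6 averaged 9.11 ± 0.17 and CT6 9.37 ± 0.08. It rose by 1.58 ± 0.22 (2.99-fold, 95% interval 2.14 to 4.17, adjusted p 0.0217), and by 1.36 ± 0.18 without array 1 (adjusted p 0.0169). Its ZT12 values were dim, and the gene reached the intensity filter through the higher values of the other groups. With CT12 and ZT12 fitted alone it fell below the filter and was not tested. Slc6a9, the glycine transporter GlyT1, differed by 0.01 (adjusted p 0.984). Of 16 genes tested from the amacrine and horizontal cell list, Slc6a5 alone passed, against 0.126% higher and 0.378% lower among all genes. Which cells of the retina its signal came from was not tested. The inhibitory genes Gad1 and Slc32a1 differed by -1.66 and -1.19, or -0.38 and -0.28 without array 1.

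Slfn2 read 9.44, 9.39 and 8.88 at ZT12 and 10.90, 10.46 and 10.44 at CT12. Again no array of a group crossed into the other. It rose by 1.36 ± 0.21 (2.57-fold, adjusted p 0.0319), and by 1.22 ± 0.20 without array 1 (adjusted p 0.0334).

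A further 15 probe sets passed with all 6 arrays but not without array 1, where their adjusted p lay between 0.0505 and 0.0651 and each kept its sign. Named genes among them that were lower were Cdkn1a, described above, Lipa, the lysosomal acid lipase (-1.46), and Mtfr1, a mitochondrial fission regulator (-1.15). The brightest Lipa probe set differed by only -0.20, and by -0.07 without array 1, and another by -0.51 and -0.15. Lower too were Ptpn1, a tyrosine phosphatase that restrains insulin signalling (-1.07), and Hs6st1, a heparan sulfate sulfotransferase (-1.04). A2m, a protease inhibitor, was lower on separate probe sets (-1.16 and -0.77). Its other tested probe sets did not pass, at -0.61 for the brightest, -0.56 and 0.13. Those that were higher were Cyss, a cystatin (0.92), Cyp2e1, a cytochrome P450 (0.93), and Ndufa4l2, a mitochondrial protein (2.16). Ptpn1 read 12.67, 12.47 and 12.47 at ZT12 and 11.13, 11.64 and 11.63 at CT12, and its 4 other probe sets differed by -1.02, -1.01, -0.62 and -0.03. The Ndufa4l2 probe set is of a kind that can match several transcripts. It averaged 8.39 at ZT12, 8.71 at ZT6 and 8.86 at CT6, against 10.54 at CT12. It thus reached the intensity filter through the CT12 arrays, the group in which it was higher.

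Leaving out array 1 added 15 probe sets. Besides those given above, they include the higher Ric8a, an exchange factor for G proteins, which read 10.84, 10.79 and 10.74 at ZT12 and 10.53, 11.61 and 11.71 at CT12. Its difference was 0.87 ± 0.15 (adjusted p 0.0334) without array 1 and 0.49 (adjusted p 0.251) with it, because array 1 lay on the other side of ZT12 from arrays 2 and 3. A second Ric8a probe set went the other way, at -0.69 with all arrays (adjusted p 0.192) and -0.35 without array 1 (adjusted p 0.489). Nudt6, a Nudix hydrolase, differed by -1.38 ± 0.24 without array 1 (adjusted p 0.0337) and by -0.89 with it (adjusted p 0.174), with array 1 inside the ZT12 range. A dim probe set of Fdft1, squalene synthase, passed at -1.27 ± 0.16 (adjusted p 0.0169), while the brightest of its 4 differed by 0.28 (adjusted p 0.474).

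**Figure D4:**
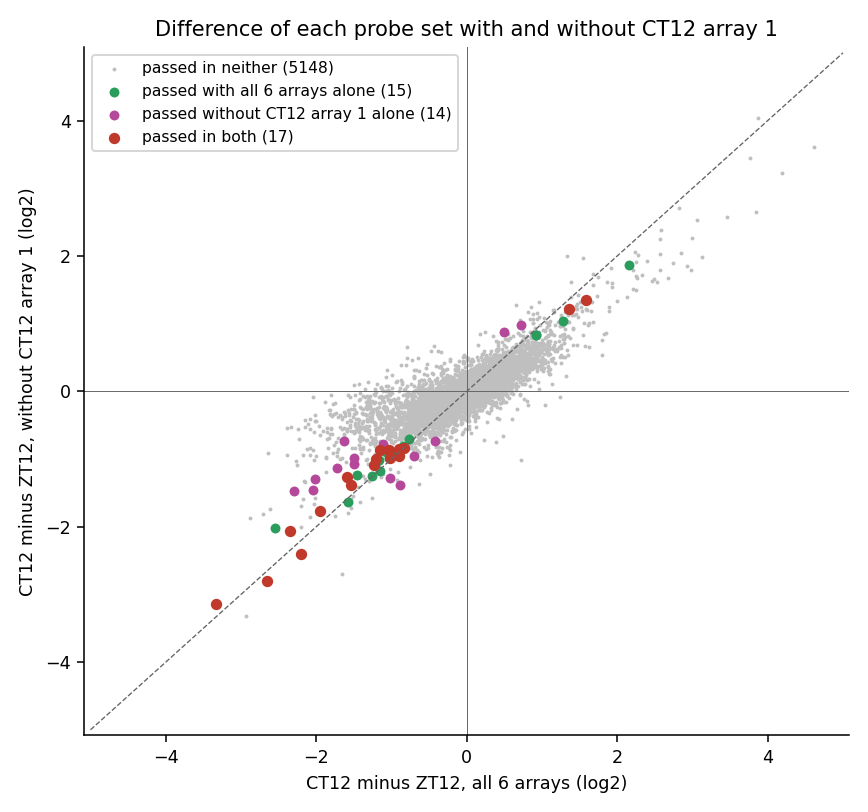
Difference between CT12 and ZT12 of each probe set tested in both fits, in log2 units, with all 6 arrays (horizontal) and without CT12 array 1 (vertical), and the line of equal values dashed. Red points passed in both (17), green points with all 6 arrays alone (15) and purple points without array 1 alone (14, with 1 more tested only there). The fits share arrays, so their likeness is no result; grey points far left of the line are probe sets whose low value came from array 1.

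For 12 of the 25 genes that passed with all arrays, other probe sets of the gene were tested that did not pass. Of these 21 probe sets, 18 had the sign of the passing one and 3 the opposite, and in 9 of the 12 genes all had 1 sign. Without array 1 the shares were smaller: of 23 such probe sets of 16 genes, 16 had the sign of the passing one and 7 the opposite, and in 9 of the 16 genes all had 1 sign.

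Of the genes listed for rods, cones, bipolar, amacrine, horizontal and ganglion cells and Müller glia, Slc6a5 alone passed with all 6 arrays. Rod genes had a median difference of -1.30 (12 of 13 negative), which was -0.05 without array 1 (9 of 13 negative, against 51.8% of all genes), and ganglion cell genes one of -1.49 (14 of 15 negative), which was -0.38. Sag, the rod arrestin, read 17.53, 17.68 and 17.68 at ZT12 and 13.03, 16.19 and 17.14 at CT12, so all CT12 arrays were lower, by a little on array 3 and by far on array 1. Its difference of -2.18 ± 0.80 (adjusted p 0.150) became -0.94 without array 1 (adjusted p 0.150). Sag had the lowest difference of the 13 rod genes. On CT12 array 3 Pdc and Prph2 read 16.32 and 16.84, above their highest ZT12 values of 16.30 and 16.63. In 2 of the 13 rod genes the CT12 arrays were all below the ZT12 arrays, against 15.6% of all genes.

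Ganglion cell genes had the highest share of separate groups among the retinal cell types. In 9 of the 15 the CT12 arrays were all below the ZT12 arrays, against 15.6% of all genes, and without array 1 this was 10 of 15 against 19.7%. Nefl, the light neurofilament, read 14.09, 14.06 and 14.08 at ZT12 and 8.71, 13.46 and 13.61 at CT12, a difference of -2.15 (adjusted p 0.198), and -0.53 without array 1 (adjusted p 0.0885). Synaptic vesicle genes lay lower as well, with 28 of 31 negative and a median of -0.78, which was -0.22 without array 1. Cone, bipolar and amacrine and horizontal cell medians were -0.66, -1.08 and -0.50, and -0.10, -0.16 and -0.11 without it.

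Genes of neighbouring tissues lay on the other side. All 10 lens fibre genes were positive, with a median of 2.35 and of 1.56 without array 1, and the 9 crystallins had medians of 1.26 and 1.09. The water channel Mip read 13.04, 10.85 and 11.64 at ZT12 and 16.21, 15.79 and 12.52 at CT12, so CT12 array 3 lay within the ZT12 range and arrays 1 and 2 above it. Its difference was 3.00 ± 0.99 (adjusted p 0.129). No lens gene was at 0 on any of the 6 arrays.

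Blood genes had higher medians on all CT12 arrays, array 3 included, than on any ZT12 array. Of 8 tested, 7 were positive and 5 had no overlap, against 13.0% of all genes, and the median was 0.90, or 0.75 without array 1. Their summed intensity was 0.0790% to 0.120% of the total at ZT12 and 0.185% to 0.247% at CT12. At hour 6 it was 0.124% to 0.190% at ZT6 and 0.120% to 0.362% at CT6, so the highest value was not at CT12. Alas2, the haem synthesis enzyme of red cells, read 10.61, 10.30 and 10.53 at ZT12 and 12.25, 11.94 and 11.29 at CT12, a difference of 1.35 ± 0.31 (adjusted p 0.0922), and Hbb, a beta globin, differed by 1.16 (adjusted p 0.136).

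Pigment epithelium genes had a median of 0.72. Rpe65, the visual cycle isomerase found in this layer, read 8.38, 8.39 and 9.20 at ZT12 and 11.26, 11.51 and 9.91 at CT12, a difference of 2.24 ± 0.58 (adjusted p 0.106). The summed intensity of the 6 genes overlapped between the groups, at 0.206% to 0.416% at ZT12 and 0.317% to 0.390% at CT12. The part of lens, blood and pigment epithelium RNA in the differences above was not tested. With the crystallin level of each array in the fit, 7 probe sets passed, those of Ahr, Gstk1, Nptx2, Slc25a30, Wbp11, Nup98 and Slc6a5. The sizes of the differences changed little where the call was lost: Fos was at -1.21, the brighter Crot probe set at -1.16, Dync1h1 at -1.16 and Slfn2 at 1.38. The highest adjusted p among the 32 was 0.0997 in limma. But the mean crystallin level did not set CT12 array 1 apart. It was 17.49 there and 17.60 on CT12 array 2, and lowest on ZT6 array 2 and CT6 array 3 (12.32 and 11.99). In that fit Nefl stayed at -2.06 and Sag at -2.02, so it did not take up their low values on array 1. The unchanged sizes therefore do not measure the part of other tissues. Without array 1, the same fit passed 32 probe sets, 30 of them among the 32 that passed there without the crystallin level.

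Ribosomal protein genes were almost all on the positive side. Of 44 tested, 41 had a positive difference, against 49.0% of all genes, and in 20 the CT12 arrays were all above the ZT12 arrays, against 13.0% of all genes, but none passed and the lowest adjusted p was 0.106. The median was 0.37, or 0.22 without array 1 (38 of 44 positive, against 48.2% of all genes), and it was 0.65 with values as deposited, so its size depended on the scaling. The arrays followed the order of the lens genes, with medians of 0.80, 0.32 and 0.12 above the ZT12 mean on CT12 arrays 1 to 3, and whether the lens share accounts for it was not tested. Medians were also positive for extracellular matrix (0.68, and 0.26 without array 1), vascular (0.46 and 0.19), immune (0.41 and 0.20), and glutathione, conjugation and P450 genes (0.35 and 0.27). They were negative for neurotransmitter receptors (-0.42 and -0.08) and voltage-gated channels (-0.36 and -0.07). The Müller glia list had a median of -0.13 that turned to 0.08 with values as deposited.

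At hour 6 no probe set passed. Between CT6 and ZT6, 0 of 5244 probe sets (0.00%) passed in limma, 266 (5.07%) had an unadjusted p under 0.05, and the smallest adjusted p was 0.147. In the fit that lacked CT12 array 1, 547 (10.4%) had an unadjusted p under 0.05 at hour 6 and again 0 passed. Gstk1 and Cdkn1a, both lower at CT12 than at ZT12, had CT6 values above ZT6 on average: Gstk1 read 9.95, 8.41 and 8.64 at ZT6 and 10.34, 11.08 and 10.09 at CT6, with no overlap, and Cdkn1a differed by 0.97 (adjusted p 0.827 for each). The 32 probe sets that passed at hour 12 had a median absolute difference of 1.22 there and 0.14 at hour 6, where 28 were under 0.5. The first of these values is fixed by the choice of the probe sets. A test of the difference between the hours passed for 1 probe set, 0.0191% of those tested, with and without array 1, and the next adjusted p was 0.0585. So for the other 31 the hours were not shown to differ.

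That probe set was the one of Nptx2 described above. It read 9.60, 9.75 and 10.33 at ZT6 and 11.79, 11.74 and 11.39 at CT6, higher under CT at hour 6 where it was lower under CT at hour 12. The 4 group means were 11.53 ± 0.38 for ZT12, 9.33 ± 0.37 for CT12, 9.89 ± 0.38 for ZT6 and 11.64 ± 0.22 for CT6. The difference at hour 12 minus that at hour 6 was -3.95 ± 0.38 (adjusted p 0.00397). The brighter Nptx2 probe set gave -1.44 ± 0.73 for the same quantity (adjusted p 0.346), with means of 11.66 at ZT6 and 11.96 at CT6.

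**Figure D5:**
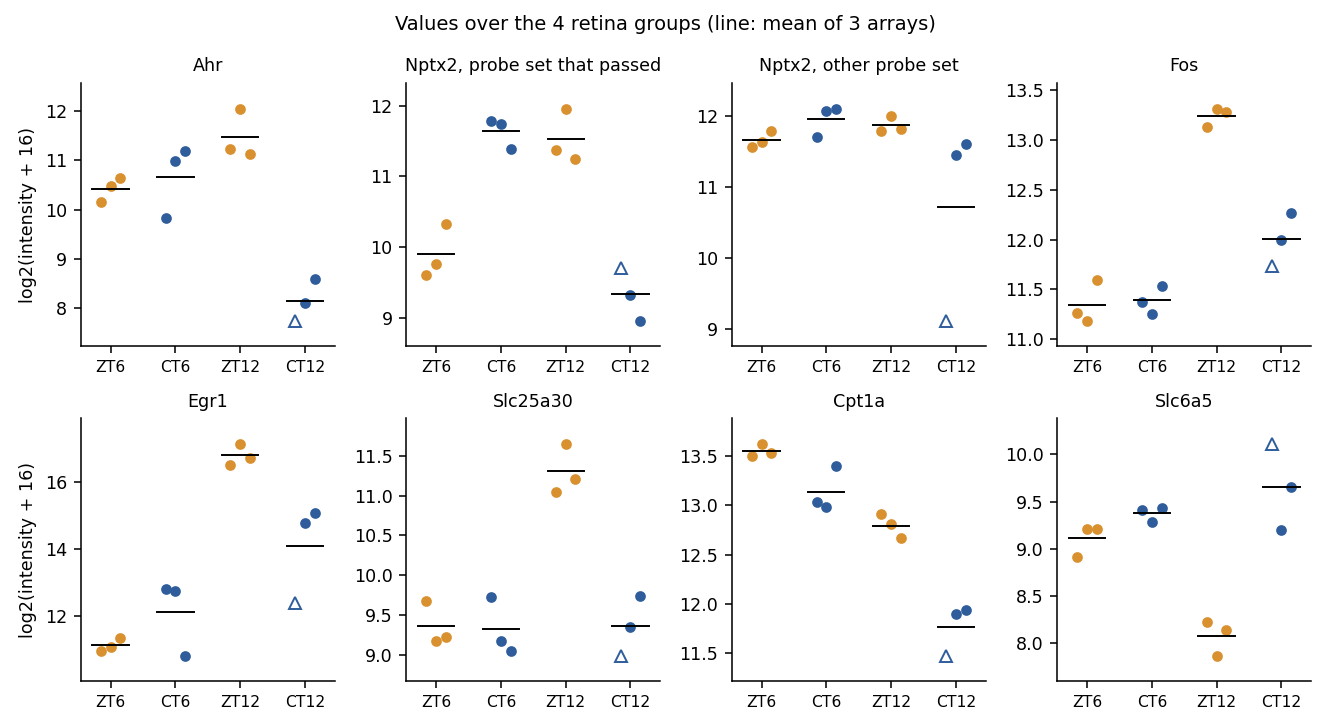
Values of 7 genes on the 12 retina arrays as log2(intensity + 16), with orange for ZT and blue for CT, open triangles for CT12 array 1 and lines for the mean of 3 arrays. Fos and Slc25a30 are highest at ZT12, Slc6a5 is lowest there, and Ahr and Cpt1a are lowest at CT12. The probe set of Nptx2 that passed is high at CT6 and ZT12, and the other Nptx2 probe set is low on CT12 array 1 alone.

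Seen over the 12 retina arrays, either group could be the one that stood out. In 19 of the 32 passing probe sets the ZT12 arrays lay beyond all 9 other retina arrays, in 16 the CT12 arrays did, in 6 both and in 3 neither. The choice of probe sets raises these counts, since in all 32 the CT12 and ZT12 arrays were already separate. Among all probe sets tested, ZT12 lay above the rest in 2.14% and below in 1.45%, and CT12 above in 3.45% and below in 6.29%. ZT12 was the outer group for Fos, Slc25a30, Crot, Cebpd, Nup98 and Slc6a5. CT12 was the outer group for Ahr, Nsg1, Cpt1a and Prune2, and Scfd2, Dync1h1, Wbp11 and Slfn2 had ZT12 at one end of all arrays and CT12 at the other.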

How the data were processed

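The deposited values are linear intensities per probe set, 1 array per sample. Their 2% trimmed means lay between 2503.2 and 2505.9 on all 16 arrays; the summarization, background correction and scaling software is not given in the sources used here, and no detection calls were used. Intensities carry no read depth, so precision rests on the number of arrays, on the spread between them and on the signal level. Of 8799 probe sets 59 were controls. Among the rest, 7006 carry 1 gene symbol, 308 several and 1426 none in the platform annotation.

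Medians of the 12 retina arrays ran from 671.3 to 858.4, more than 10% apart, so these arrays were quantile normalized. Values were log2(intensity + 16), and probe sets with a mean at or above the 40th percentile were kept. Data were prepared in Python 3.11.15. One linear model over the 4 retina groups was fitted by lmFit and eBayes (limma 3.58.1, R 4.3.3), with two-sided tests adjusted after Benjamini-Hochberg. This left 8 residual degrees of freedom and 7 without CT12 array 1, for which normalization and filter were redone. Values by array come from the fit of 12.

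Named were all genes that passed with 6 arrays (up to 20 lower and 15 higher by size), the largest without CT12 array 1 (up to 10 each way), and set numbers of members of 32 gene lists, read on the brightest probe set per gene. The members and lists were chosen with earlier results of these data known. Lists were described by counts and medians, with no test. The script was checked on simulated data. Titles number the arrays 1 to 3 in each group, and the numbers were not taken as pairs. Deviations of same-numbered CT12 and ZT12 arrays from their group means correlated by 0.04, 0.01 and -0.10. CT12 array 1 weighs heavily on the CT12 deviations, so these values cannot settle whether the numbers mark pairs. Alternatives covered the offset, scaling, filter, prior, array weights, a replicate block, a lens covariate, the groups fitted alone and arrays left out.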

Additional observations from a re-analysis of the deposited data

Results flagged for a closer look

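The Nptx2 probe set that passed differed between the hours: CT minus ZT was -2.20 at hour 12 and 1.75 at hour 6, and the test of the difference gave -3.95 (limma, adjusted p 0.00397). All 3 CT12 arrays lay below all 3 ZT12 arrays, and all 3 CT6 arrays above all 3 ZT6 arrays. The brighter Nptx2 probe set gave -1.15 and 0.30.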

How the results depend on the processing

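The probe sets that passed with or without CT12 array 1, and those of Egr1, Junb, Klf6, Alas2, Nefl and Sag, were followed through the alternatives. Left out was 1 passing probe set tested only without that array. Those followed kept their direction in every alternative in which they were tested. Of these results 570 kept their side of the threshold, 287 lost it and 56 gained it. The 570 include results of probe sets that had not passed with all 6 arrays and again did not. Over the 32 that had passed with all 6 arrays, 274 results kept the call and 287 lost it. Among these 32, Ahr and Nptx2 passed most often, in 13 of 17 and of 18 alternatives. Cyp2e1 was among the least stable, at 5 of 17. With all 6 arrays, 31 probe sets passed with an offset of 1 or of 64. The count was 21 with values as deposited, 73 with each array at a common median (5 higher and 68 lower, 6.85% higher against 18.8%), 21 with the filter at the 60th percentile, 3 with no filter, 7 with the lens level as covariate, 2568 with array weights, 1 without the arrays numbered 3, and 0 with the 2 groups fitted alone, where 689 had an unadjusted p under 0.05. Leaving out single arrays gave 0 to 1072. Without CT12 array 1, the count of 32 became 115 at a common median, where the median over all probe sets moved to -0.13, 55 at the 60th percentile, 4 with no filter, 84 with a trended robust prior, 12 with array weights, 4 without the arrays numbered 3, 0 with the groups alone (845 unadjusted), and 0 to 132 on leaving out another array. The test of the difference between the hours, which gave 1, gave 1370 with array weights, 2 with the lens level, 3 without the arrays numbered 3, and 1 to 63 on leaving out single arrays (63 without CT12 array 3 and 4 without CT12 array 2); Nptx2 was among them each time. When array numbers entered as a replicate block, 8, 11 and 2 probe sets passed in these 3 tests. The cause of each change was not tested.

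Medians of gene lists stayed within the spread between arrays in 540 results and moved beyond it in 36. The depth of these arrays is their signal: no detection calls were used, so values near the filter were not told from background, and 3 arrays per group, or 2, limit every interval given.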

Other observations

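The pineal gland has 1 array per label, so its values have no test. The array titled ZT12 is described in another label as taken at hour 6, and the title was followed here, so the hour of that array is uncertain. Of the 26 probe sets that were lower at CT12 in the retina, 17 had a lower value on the pineal array labelled CT12 than on the one labelled ZT12, and of the 6 that were higher, 3 had a higher value. Over all 5244 probe sets, 2685 were lower at CT12 in the pineal gland. Ahr differed by 0.04, Fos by -0.09, Cpt1a by -0.31, Nsg1 by -2.16 and Slc6a5 by -1.10 on the log2 scale.

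Of 3 muscle markers, Acta1 and Ckm were highest on CT12 array 2. Acta1, skeletal muscle actin, read 13.88 on CT12 array 2, against 9.52 to 10.13 on the other 5 arrays, and Ckm, muscle creatine kinase, read 11.89, 13.38 and 9.68 on CT12 arrays 1 to 3 and 8.50 to 9.45 at ZT12. Myh11, smooth muscle myosin, was highest on CT12 array 1, at 11.29, and read 8.89 on CT12 array 2 and 10.54 on ZT12 array 3.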
